A study of Mus musculus with 42 samples.

Results

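The cytosolic ribosome is built from ribosomal RNA and the proteins encoded by the Rpl and Rps genes, and the 84 genes described here are those of 21884 protein-coding genes whose symbols follow that naming: 52 genes of the large 60S subunit and 32 genes of the small 40S subunit. Mitochondrial ribosomal protein genes, kinase genes with similar symbols, genes whose symbols end in rt and -ps pseudogenes were not counted as members. The genes were followed in bone marrow-derived macrophages (BMDMs) from male C57Bl6/J mice of 6–12 weeks, grown for 7 days in medium with L929-conditioned supernatant. Wild-type cells (WT) were compared with cells deficient for the nuclear receptor Nur77 (KO), each untreated (0 h) or given 100 ng/ml lipopolysaccharide (LPS), a bacterial cell wall component sensed by Toll-like receptor 4, for 1 h or 18 h. Chromatin immunoprecipitation sequencing (ChIP-seq) was done with antibodies against RNA polymerase II (Pol II) and against histone H3 acetylated at lysine 27 (H3K27ac), in 3 libraries per genotype, time and antibody, 36 in all, with 1 input library per genotype and time. The KO mice carried a whole-body deletion made by crossing a floxed Nr4a1 allele to a Cre driven by the cytomegalovirus promoter, and the WT mice were littermates; according to the study's methods the KO animals no longer carried Cre, while their sample labels give the genotype only as cre. How many animals stand behind the replicates was not stated, so the p-values measure the spread between libraries.

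Ribosomal protein genes are among the most heavily transcribed genes of most cells. Their proteins are needed in equal amounts, and their mRNAs mostly begin with a run of pyrimidines (the 5′ terminal oligopyrimidine, or TOP, sequence) through which mTOR signalling and the protein Larp1 adjust their translation. Pol II over a gene reports polymerase that is bound there, both paused and elongating, and H3K27ac marks active promoters and enhancers. Neither is a measurement of mRNA or of protein, and in bulk cells fewer cells of a type and less signal per cell cannot be told apart.

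The values are normalized tags: sequenced fragments per 10 M fragments of the library, summed over the broad regions that were found in that library. For Pol II they were summed over the gene and 500 bp on either side, and for H3K27ac over 2500 bp on either side of the gene start. A value of 0 means that no region was listed there, not that no fragment fell there. Changes are log2 differences of the normalized tags plus 10, with the standard error (SE), tested with limma across all genes with a value. A gene is said to have risen or fallen where its Benjamini-Hochberg adjusted p was under 0.05. Library depth was 21.73–36.12 M tags for Pol II and 13.51–55.37 M for H3K27ac, with 23.56–55.37 M in KO and 13.51–31.15 M in WT cells. A pair of H3K27ac libraries stood apart from their own group, replicate 1 of KO at 1 h and replicate 1 of KO at 18 h. They correlated with their own replicates at r from 0.912 to 0.915, whereas the median over all H3K27ac replicate pairs was 0.989. At 1 h the split can be read from either side: replicate 1 correlated with the WT mean at 1 h at r = 0.983, whereas replicates 2 and 3 did so at 0.908 and 0.909. At 18 h replicates 2 and 3 correlated with the WT mean at 0.984 and 0.984, and replicate 1 at 0.913. The counts of members for H3K27ac in KO cells are therefore given with and without them. The targeted gene, Nr4a1, had lower Pol II at 0 h in KO cells (87.8, 76.1 and 70.2 tags) than in WT cells (189, 188 and 208 tags), a log2 difference of -1.22 (SE 0.167, adjusted p = 0.000124). At 1 h all 3 KO libraries were above the WT ones (33.5, 39.0 and 36.6 against 25.5, 23.0 and 30.4 tags). That difference of +0.36 did not pass the test (adjusted p = 0.0892). H3K27ac at the Nr4a1 start gave -0.05 at 0 h (adjusted p = 0.992) and +0.20 at 1 h (adjusted p = 0.622). At 18 h its Pol II was 0 in all KO libraries and 7.46, 5.98 and 0 tags in WT cells (-0.49, adjusted p = 0.0441). All 8 macrophage markers were listed in all 18 Pol II libraries. In WT cells their sum was 21860–25830 tags at 0 h, 34760–36740 at 1 h and 42710–45290 at 18 h. In KO cells it was 24440–26240, 26010–26880 and 36470–39520 tags. Of the lists of other cells, 2 of 4 B cell markers were listed in some Pol II library (Cd79a and Ms4a1; Pax5 at 0) and 2 of 4 T cell markers (Cd3d and Lck; Cd3e and Cd3g at 0). So were 1 of 5 neutrophil and granulocyte precursor markers (S100a8; Ly6g, S100a9, Elane and Mpo at 0) and 1 of 4 erythroid markers (Klf1). Of the fibroblast list 1 of 4 was listed (Pdgfra; Col1a1 and Dcn at 0), as were 3 of 4 dendritic cell markers (Xcr1, Zbtb46 and Flt3; Siglech at 0). The dendritic cell list summed to 257.6–336.9 tags in WT cells at 0 h, 1160–1375 at 1 h and 381.5–461.3 at 18 h. In KO cells it summed to 295.2–322.8, 1143–1282 and 408–961.8 tags. The B cell list summed to 41.43–161.2 tags over all libraries, with its lowest values at 1 h, the T cell list to 135.5–190.2 and the erythroid list to 0–31.7. The neutrophil list, which is S100a8 alone here, held 15.4–16.6 tags in WT and 39.3–45.3 in KO cells at 0 h. The part of these cells in the results below was not tested.

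The sequences around the start of 9 members that the results turn on are given first, from 40 bases before to 20 bases after the RefSeq start (RefSeq, GRCm38.p6), 5′ to 3′ on the strand of the gene. Capitals mark the letters of the motifs searched for. Rpl10a and Rps12 had the largest falls in Pol II, Rps4x a large fall in H3K27ac, Rplp0 is used as a reference transcript by the study, and Rpl27, Rps6, Rps9, Rpl39l and Rpl3l had values that rose in at least 1 comparison.
Rpl10a, chr17:28328431-28328490, plus strand: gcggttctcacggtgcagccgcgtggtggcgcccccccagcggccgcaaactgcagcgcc
Rps12, chr10:23787190-23787249, minus strand: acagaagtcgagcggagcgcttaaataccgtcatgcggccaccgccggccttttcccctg
Rps4x, chrX:102189372-102189431, minus strand: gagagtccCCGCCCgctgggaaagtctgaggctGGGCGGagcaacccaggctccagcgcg
Rplp0, chr5:115559427-115559486, plus strand: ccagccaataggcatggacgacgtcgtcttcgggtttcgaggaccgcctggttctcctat
Rpl27, chr11:101442205-101442264, plus strand: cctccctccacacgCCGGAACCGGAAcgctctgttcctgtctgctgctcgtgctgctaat
Rps6, chr4:86857348-86857407, minus strand: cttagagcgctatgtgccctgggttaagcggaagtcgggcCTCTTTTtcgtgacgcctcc
Rps9, chr7:3704001-3704060, plus strand: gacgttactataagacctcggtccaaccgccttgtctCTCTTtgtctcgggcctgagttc
Rpl39l, chr16:10170188-10170247, plus strand: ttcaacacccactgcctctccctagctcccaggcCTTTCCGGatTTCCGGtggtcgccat
Rpl3l, chr17:24727786-24727845, plus strand: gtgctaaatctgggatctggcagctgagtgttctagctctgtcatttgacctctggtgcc

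The table of promoters (250 bases before to 50 bases after each start) held 76 promoters of 64 members, some of them overlapping, and 32851 promoters in all. The ETS letters CCGGAA, searched on both strands as were all those not stated otherwise, were in 47.4% of member promoters and 14.9% of all promoters. In Rpl27 they stand as a pair of adjoining copies before the RefSeq start. A TCT initiator (the letters CTTTC or else CTTTT, and likewise CTTCC as well as CTCTT) on the gene's strand within 10 bases of the start, was in 31.6% of member promoters against 9.97% of all, and Rps6, Rps9 and Rpl39l carry one in the stretches above. In Rpl39l it overlaps an ETS match. The SP/KLF letters GGGCGG were in 60.5% against 35.7%, and the YY1 letters AAGATGG in 15.8% against 6.34%. The E-box CACGTG, the letters read by Myc and Max, was in 10.5% against 7.15%, and a TATA box (TATAAA, 40 to 20 bases before the start) in 1.32% against 1.87%. The AP-1 letters TGAGTCA, or with the middle base changed TGACTCA, were in promoters of Rpl22 and Rpl9 (2.63% against 5.20%), and the Nur77 response element AAAGGTCA in overlapping promoters of Rpl35a (3.95% against 1.51%). Each match describes letters in a window and was not tested for binding. The median Pol II change of WT cells at 18 h, described below for all members, was -0.52 for the 23 members with a TCT match and -0.67 for the 40 without, and -0.54 for the 35 with an ETS match and -0.62 for the 28 without.

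In untreated cells the ribosomal protein genes were densely covered by Pol II. Per kb of window, the median of the 82 members above 0 in WT cells at 0 h was 78.1 tags, against 7.21 tags for the 13395 genes above 0, and 75 members lay among the upper 10% of those genes. The window spans the whole gene, so a long gene with Pol II listed only near its start has a low value per kb. The part of gene length in this comparison was not tested. The highest was Rpl10a, a protein of the L1 stalk of the 60S subunit, at 190 ± 49.6 tags per kb (SD, n = 3). Its libraries held 244, 147 and 178 tags per kb, so that its place above the next members did not exceed its own spread. Rps9, a 40S protein, came next at 167, 190 and 191 tags per kb. Rpl3, a 60S protein close to the peptidyl transferase centre, followed at 149, 171 and 170 tags per kb, and Rps29 and Rps12 had means of 157 and 154, within the spread of Rpl3. The lowest were Rpl3l, the striated muscle paralog of Rpl3, at 8.83 ± 0.910 tags per kb, Rps14 at 25.5 ± 2.38 and Rpl11, which binds the 5S ribosomal RNA, at 27.7 ± 1.21. The windows of Rps14 and Rpl11 are long, 32.4 and 26.2 kb in the annotation (GRCm38, GENCODE), so that their mean per kb takes in much sequence outside the usual transcript. The window of Rps14 is shared with Ndst1.

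After 18 h of LPS, Pol II over the ribosomal protein genes fell in both genotypes. In WT cells 64 of 83 tested members fell and 5 rose, and the median change was -0.58, while over all 13348 genes tested 33.3% fell and 33.3% rose, with a median change of 0.00. In KO cells 65 of 82 members fell and 4 rose, with a median of -0.66, against 42.2% of all genes that fell and 28.1% that rose, with a median of -0.18. The WT and KO libraries are separate samples: 63 members fell in both, which is 98.4% of the WT list and 96.9% of the KO list. Summed over all members, Pol II took 0.347 ± 0.0244% of the WT library at 0 h (SD, n = 3) and 0.236 ± 0.00409% at 18 h, and in KO cells 0.337 ± 0.0130% and 0.223 ± 0.00862%. The covered length behind these sums was 412 and 399 kb in WT cells and 411 and 393 kb in KO cells, and the density per covered kb went from 84.4 to 59.0 and from 82.1 to 56.6 tags. Of the 83 members with a value in WT cells, 60 had their lowest mean of the 3 times at 18 h (72.3%), against 15.3% of all genes, and 63 in KO cells (75.9% against 22.9%). The median density of the members fell to 51.3 tags per kb in WT cells, and 34 members, where 75 had been before, were left among the upper 10% of genes. In KO cells these were 74 before LPS and 32 after it. The lower bound of the upper 10% itself moved, from 45.8 to 54.7 tags per kb in WT and from 48.3 to 52.6 in KO cells.

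**Figure D1:**
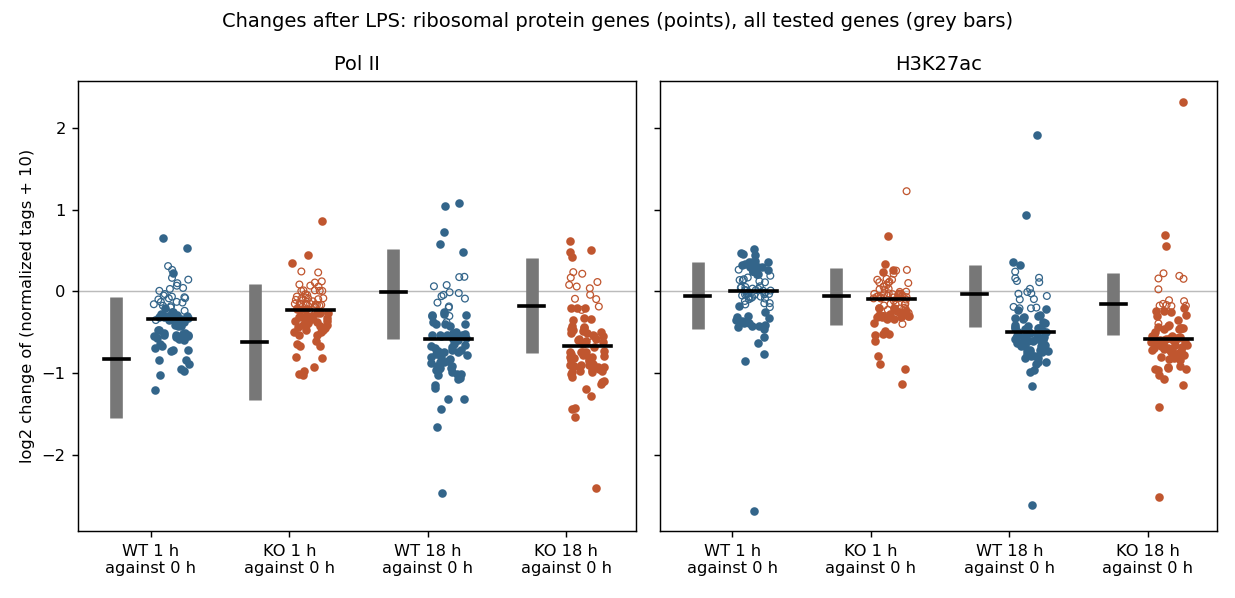
Log2 change of normalized tags plus 10 after LPS for each ribosomal protein gene (points; filled where adjusted p was under 0.05) in WT (blue) and KO (orange) cells, with black lines at the medians, beside the quartiles and median of all tested genes (grey bars), for Pol II on the left and H3K27ac on the right. At 18 h the members' medians lie at -0.58 and -0.66 for Pol II and at -0.50 and -0.59 for H3K27ac, below those of all genes; at 1 h the Pol II medians are below 0 but above those of all genes, and their direction turns when libraries are centred on their medians.

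The largest fall was that of Rpl10a (chr17:28328471-28331033 on the plus strand), whose first bases are printed above. In WT cells its Pol II values were 870, 524 and 633 tags at 0 h, 408, 383 and 406 at 1 h, and at 18 h 117, 104 and 113. In KO cells they were 701, 574 and 501, then 380, 344 and 371, then 105, 110 and 92.1. The values of the 3 times did not overlap in either genotype, and the change at 18 h was -2.47 (SE 0.145, adjusted p = 7.06e-11) in WT and -2.41 (SE 0.145, adjusted p = 7.65e-11) in KO cells, 0.181 and 0.188 of the starting level plus 10. No other gene lies in its window. Rps12, a 40S protein, fell from 430, 504 and 498 tags to 138, 149 and 143 in WT cells, a change of -1.67 (SE 0.0821, adjusted p = 6.10e-12), and by 1.54 on the log2 scale in KO cells. Both genotypes passed through an intermediate level at 1 h, with WT values of 294, 302 and 303 tags. On this scale 68.5% of all genes in WT and 62.2% in KO cells fell at 1 h, so falls at 1 h are to be read against all genes. Rpsa, the 40S protein also known as the laminin receptor, held 658, 743 and 701 tags at 0 h and 254, 238 and 262 at 18 h in WT cells (-1.44 in both genotypes). Rpl12, of the base of the 60S stalk, had a change of -1.32 in WT and -1.28 in KO cells. Rplp0, the P0 protein of the same stalk, fell from 491, 482 and 384 tags to 219, 213 and 333 in WT cells (-0.82, SE 0.158, adjusted p = 0.000188) and from 494, 512 and 622 to 214, 313 and 298 in KO cells (-0.97, adjusted p = 3.25e-05).

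**Figure D2:**
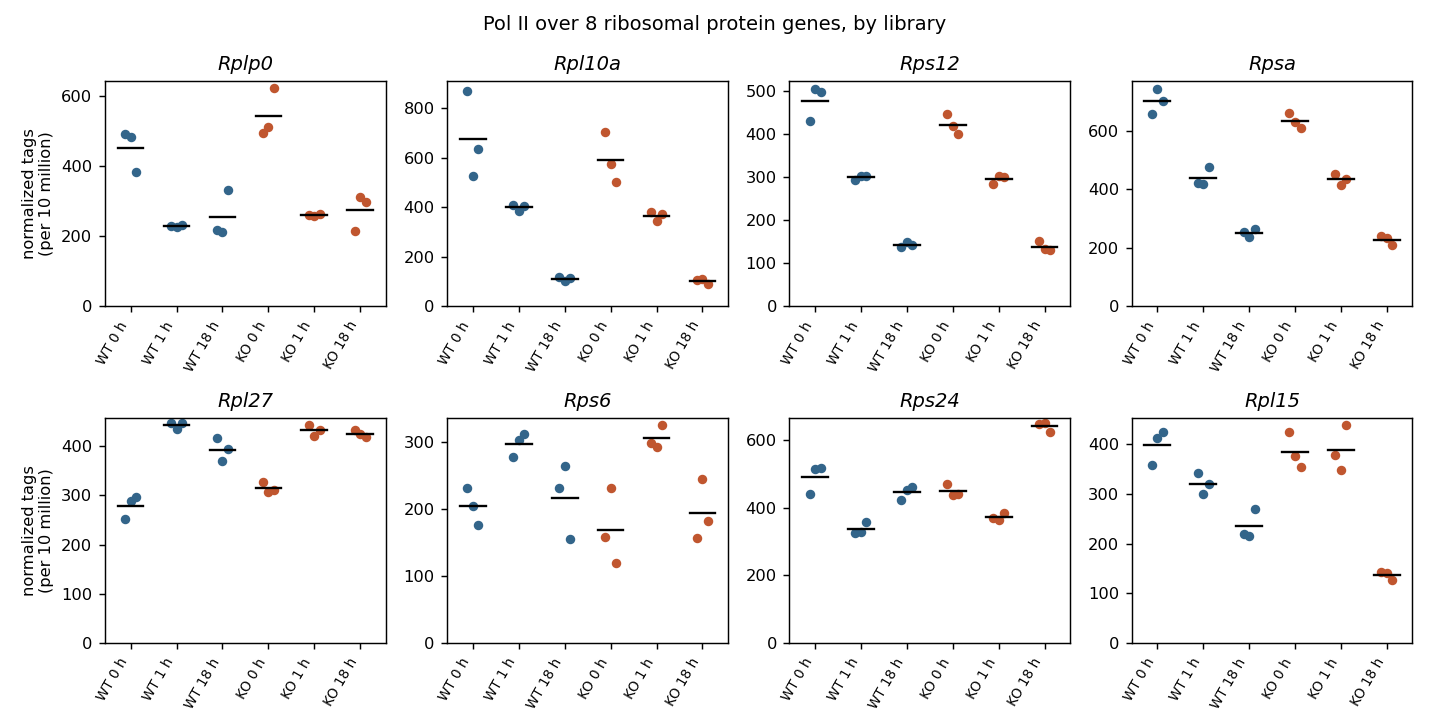
Normalized Pol II tags per 10 M over 8 ribosomal protein genes in each library, WT in blue and KO in orange, with a line at the mean of the 3 libraries of each group. Rpl10a, Rps12 and Rpsa step down from 0 h to 1 h to 18 h in both genotypes, Rplp0 reaches its lower level at 1 h, and Rpl27 rises from a mean of 279 to 443 tags at 1 h in WT cells. Falls at 1 h are to be read against all genes, of which 68.5% in WT and 62.2% in KO cells also fell on this scale.

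The fall at 18 h was seen in both subunits and did not rest on genes that share their windows. Among 60S members 40 of 51 tested fell in WT cells with a median of -0.66, and among 40S members 24 of 32 fell with a median of -0.54. In KO cells the medians were -0.74 and -0.61. Of the 51 tested members with no other protein-coding gene in the window 40 fell (median -0.64), and of the 32 that share a window 24 fell (median -0.54). Small nucleolar RNAs guide the modification of ribosomal RNA, and 30 members hold a gene for one. Of these 26 fell and none rose, at a median of -0.81, against 38 of 53 and a median of -0.54 for members without one. In KO cells these medians were -0.80 and -0.60. When only the 500 bp on either side of the start were counted, 60 of 81 members fell in WT and 59 of 81 in KO cells, against 17.4% and 25.1% of all genes in that window.

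A few members went the other way at 18 h. In WT cells 5 rose, Rpl3l, Rpl39l, Rpl18, Rps9 and Rpl27, and 4 in KO cells, Rpl3l, Rps24, Rpl18 and Rpl27. The rise of Rps24 in KO cells (+0.50), in a window shared with Polr3a, was a fall of 0.49 on the log2 scale at the annotated start alone (-0.49, adjusted p = 0.000461). The RefSeq start of Rps24 lies 3553 bases from the annotated one, so the 500 bp on either side do not cover it. Rpl27, a 60S protein with no other gene in its window, held 252, 288 and 297 tags at 0 h and 416, 370 and 394 at 18 h in WT cells, a change of +0.48 (SE 0.0715, adjusted p = 1.26e-05), and +0.42 in KO cells. Rps9, also alone in its window, rose from 654, 743 and 744 to 1095, 1008 and 1119 tags in WT cells (+0.58, adjusted p = 7.63e-05), and in KO cells it held 746, 715 and 686 and then 805, 804 and 806 tags (+0.17, adjusted p = 0.153). Rpl18 held 828, 910 and 965 tags at 0 h, 342, 380 and 432 at 1 h, and at 18 h 1511, 1427 and 1542 in WT cells. That course was down and then up, with no overlap between the times, but its window is shared with Fam83e and Sphk2, and its RefSeq start lies 2614 bases from the annotated one. Rpl3l went from 73.1, 83.9 and 89.9 to 171, 194 and 192 tags (+1.09, adjusted p = 2.87e-07) in a window shared with Msrb1, and no H3K27ac was listed at its start in any library. Rpl39l, a paralog of Rpl39 known from testis, was listed at 0 in all Pol II libraries at 0 h and 1 h, at 9.83, 9.82 and 12.4 tags in WT cells at 18 h and at 16.7, 0 and 0 tags in KO cells, close to the smallest regions listed. Rpl10l, another testis paralog, was listed at 0 in all 36 libraries.

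**Figure D3:**
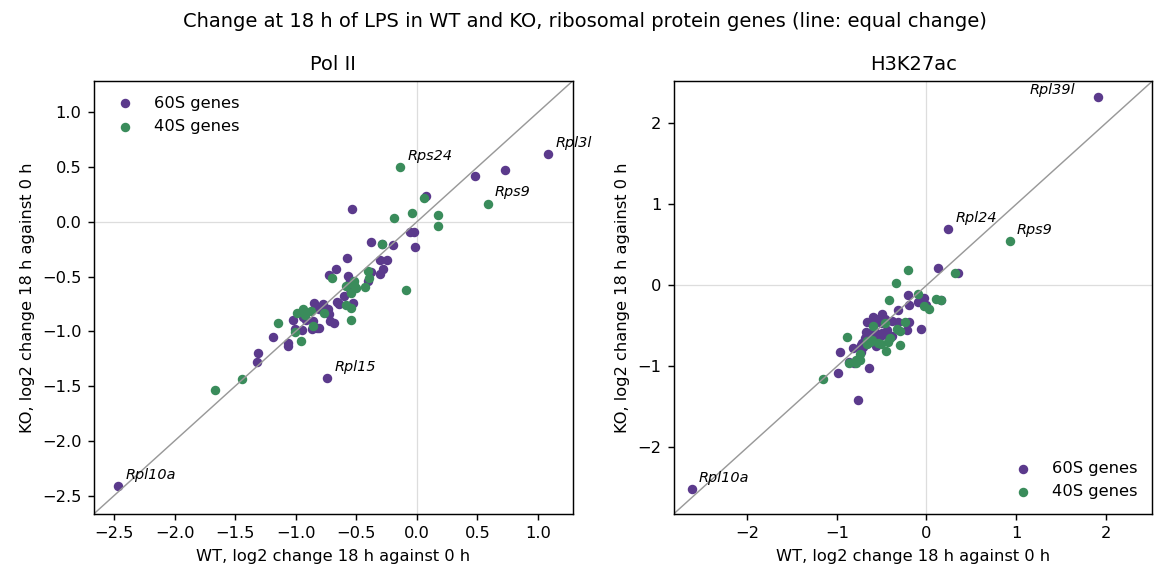
Log2 change at 18 h of LPS in WT cells (horizontal) against KO cells (vertical) for each ribosomal protein gene, 60S genes in purple and 40S genes in green, for Pol II on the left and H3K27ac on the right; the line marks equal change. Rpl10a lies lowest in both at -2.47 and -2.41 for Pol II, and Rps24 and Rpl15 lie off the line.

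The paralogs that are widely expressed were listed in every library. Rpl22, a 60S protein, had 257, 300 and 290 tags at 0 h in WT cells and 117, 100 and 106 at 18 h (-1.31), and its paralog Rpl22l1 209, 204 and 215 and then 138, 136 and 140 (-0.57). Rpl7 changed by -0.55 and Rpl7l1 by -0.53 in WT cells at 18 h. Rpl36al fell by 0.25 (adjusted p = 0.0408), while Rpl36a, at 175, 177 and 178 tags before and 191, 183 and 187 after, did not pass the test (+0.08, adjusted p = 0.530). Rps27 fell by 0.52, whereas Rps27l, a p53-induced paralog, held 298, 273 and 256 and then 343, 337 and 262 tags (+0.17, adjusted p = 0.259). Rps27a, which encodes a fusion of ubiquitin with a ribosomal protein, had widely spread values at 0 h, 177, 228 and 498 tags in WT and 503, 443 and 185 in KO cells, against 254, 264 and 250 in WT cells at 18 h, and no Pol II comparison of it passed the test. Genes of ribosomal proteins with other symbols were set beside the members. In WT cells at 18 h Fau rose by 0.44 (adjusted p = 0.000233) and Rack1 did not pass the test (-0.11, adjusted p = 0.391).

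At 1 h the direction of change depended on the scale. Per 10 M tags, 52 of 82 members fell in WT cells and 3 rose, with a median of -0.34, and over all 13229 genes 68.5% fell and 18.6% rose, with a median of -0.82. In KO cells 42 of 82 fell and 3 rose (median -0.22), against 62.2% and 20.6% of all genes (median -0.62). With each library centred on its own median the same members gave 66 higher and 3 lower in WT and 58 higher and 6 lower in KO cells, where 37.1% of all genes were higher and 38.2% lower in WT and 36.3% and 38.4% in KO cells. The members' medians were then +0.46 and +0.35, so the members fell by less than the typical gene. A set of 3 members rose in both genotypes on the scale of tags: Rpl27, Rps6 and Rpl19. Rps6, the 40S protein phosphorylated by S6 kinases, held 231, 204 and 177 tags at 0 h and 277, 303 and 312 at 1 h in WT cells (+0.53, SE 0.207, adjusted p = 0.0245), and 158, 231 and 119 and then 298, 293 and 326 in KO cells (+0.86, adjusted p = 0.00101). At 18 h it was back at 231, 265 and 156 tags in WT cells, overlapping the values at 0 h. Rpl27 reached 447, 434 and 448 tags at 1 h in WT cells (+0.65, adjusted p = 1.64e-07) and 443, 421 and 434 in KO cells (+0.44). The largest falls in WT cells were those of Rpl18 (-1.21) and Rps14 (-1.03), both in shared windows; that of Rps14 was -0.07 at the start alone (adjusted p = 0.528). Rplp0 fell to 228, 225 and 233 tags in WT (-0.94, adjusted p = 2.54e-05) and to 261, 259 and 264 in KO cells (-1.02, adjusted p = 1.24e-05), but after centring the WT change was -0.15 (adjusted p = 0.439), close to that of the typical gene.

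From 1 h to 18 h the members and the bulk of genes moved in opposite directions. In WT cells 46 of 83 members fell and 13 rose (median -0.29), while over all 12902 genes 18.8% fell and 66.6% rose (median +0.81). In KO cells 54 of 82 members fell and 9 rose (median -0.40), against 24.2% and 55.2% of all genes (median +0.47). Relative to the median of all genes the members' medians were -1.10 and -0.87. The leading genes were Rpl10a (-1.75 in WT, -1.74 in KO) and, in WT cells, Rps12 (-1.01); in KO cells Rpl15, a 60S protein, had the next largest fall (-1.44, SE 0.109, adjusted p = 1.37e-09). Rpl18 (+1.94) and Rpl3l (+1.80) rose most in WT cells.

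H3K27ac at the starts of the members fell at 18 h as Pol II did. In WT cells 60 of 82 tested members fell and 4 rose, with a median of -0.50, whereas 26.5% of all 11790 genes fell and 23.6% rose (median -0.03). In KO cells 65 of 82 fell and 3 rose, with a median of -0.59, against 34.2% and 18.4% of all genes (median -0.15). In both genotypes 58 members fell, 96.7% of the WT list and 89.2% of the KO list. The members' share of the library went from 0.369 ± 0.00953% to 0.282 ± 0.00531% in WT and from 0.376 ± 0.00411% to 0.268 ± 0.0118% in KO cells (SD, n = 3). The covered length was 263 and 247 kb in WT and 272 and 261 kb in KO cells, with a density per covered kb of 140 and 114 and of 139 and 103 tags. Rpl10a again led, at 1107, 1214 and 1277 tags at 0 h, 710, 628 and 644 at 1 h, and at 18 h 178, 202 and 180 in WT cells (-2.62, SE 0.178, adjusted p = 8.59e-09). In KO cells its 18 h values were 346, 198 and 169 tags (-2.51), the highest being the library that stood apart, without which the change was -2.81. Rps4x, the X-linked 40S gene with a pair of SP/KLF matches in the stretch printed above, went from 226, 222 and 226 to 97.1, 93.4 and 95.5 tags in WT cells (-1.16) and from 204, 212 and 194 to 83.7, 97.8 and 77.4 in KO cells (-1.15). Rps12 fell by 0.87 and 0.96. Rps9 rose, as its Pol II did in WT cells, from 617, 600 and 625 to 1212, 1148 and 1173 tags in WT (+0.93, SE 0.103, adjusted p = 1.96e-06) and from 630, 664 and 622 to 798, 1005 and 1030 in KO cells (+0.55, adjusted p = 0.000333). Rpl27 did not follow its Pol II: its H3K27ac fell from 229, 238 and 243 to 177, 204 and 186 tags in WT cells (-0.31, adjusted p = 0.0105). Rpl39l was listed at 0 before LPS, and at 1 h at 0 in WT cells and at 0, 23.9 and 27.7 tags in KO cells. At 18 h it held 22.9, 40.4 and 22.3 tags in WT and 174, 8.95 and 25.9 in KO cells, where the value of 174 came from the library that stood apart. Without that library the KO change at 18 h was +1.38 in place of +2.32. The others that rose at 18 h were Rpl18 and Rps15a in WT and Rpl24 in KO cells. Without the KO library that stood apart at 18 h 67 members fell and 4 rose in KO cells (39.8% and 18.1% of all genes).

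**Figure D4:**
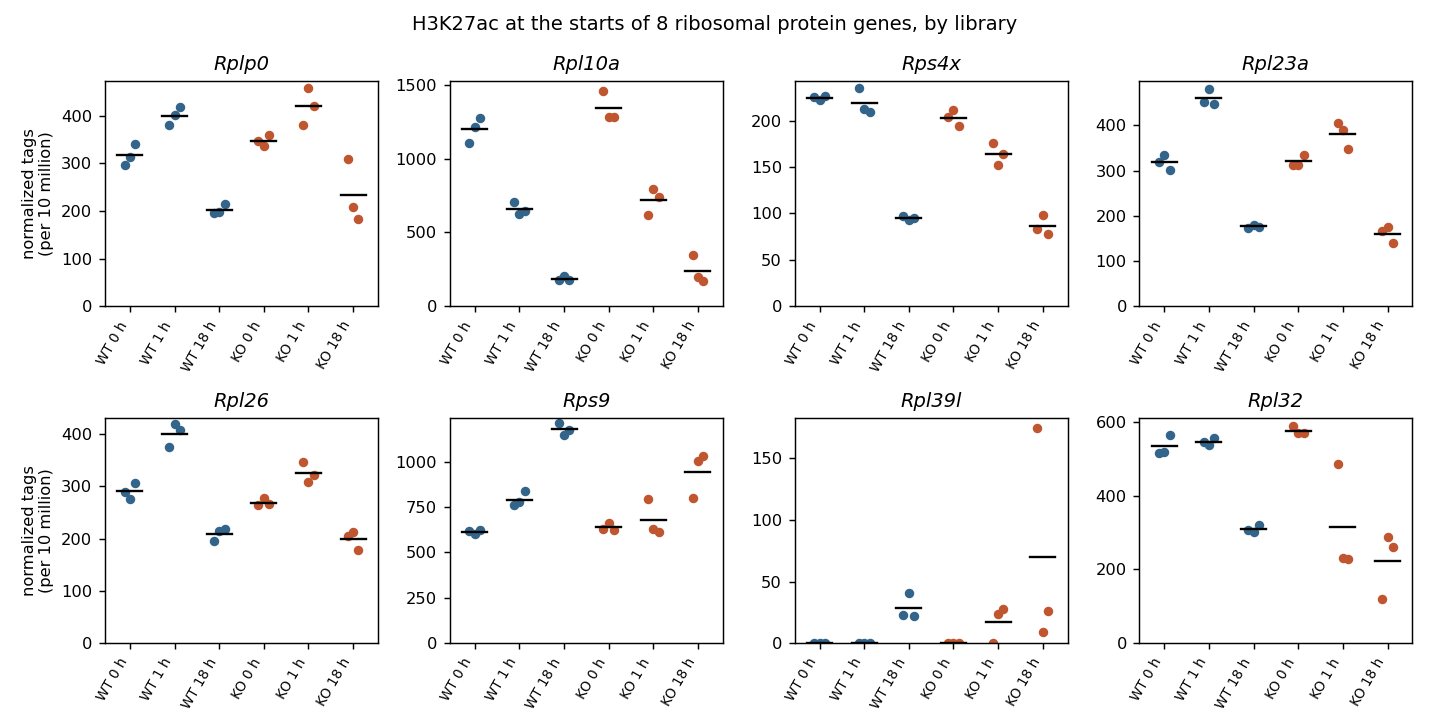
Normalized H3K27ac tags per 10 M within 2500 bp of the start of 8 ribosomal protein genes in each library, WT in blue and KO in orange, with a line at the mean of the 3 libraries of each group. Rpl10a and Rps4x fall at 18 h in both genotypes, Rpl23a and Rpl26 rise at 1 h and fall below their starting level at 18 h, and Rps9 rises.

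At 1 h H3K27ac at the members was mixed. In WT cells 18 of 81 rose and 20 fell (median 0.01), close to the 25.3% and 29.4% of all 11903 genes. Without replicate 2 these counts were 5 and 13 (17.3% and 17.9% of all genes), and without replicate 3 they were 4 and 10 (17.9% and 19.3%). In KO cells 4 of 82 rose and 25 fell (median -0.09), against 20.4% and 26.6% of all genes, and without replicate 1 of KO at 1 h 4 rose and 28 fell (23.1% and 26.2% of all genes). Without replicates 2 and 3 of KO at 1 h, where the 1 library left is assumed to vary like the other groups, 7 rose and 25 fell (16.8% and 27.2% of all genes). Without replicate 2 of all groups 0 rose and 9 fell (11.6% and 14.5% of all genes), and without replicate 3 these were 2 and 9 (12.5% and 14.8%). The highest rise in WT cells was that of Rpl23a, a 60S protein near the exit tunnel, from 318, 333 and 302 to 450, 481 and 447 tags (+0.52, SE 0.0830, adjusted p = 7.54e-05); at 18 h it was down to 174, 180 and 176, and its Pol II at 1 h did not pass the test (-0.10, adjusted p = 0.271). Rpl19 rose by 0.46 and Rpl26 by 0.45. Rpl3 fell most, from 583, 568 and 796 to 89.2, 79.1 and 107 tags (-2.69, SE 0.365, adjusted p = 1.51e-05), and held 374, 606 and 326 at 18 h; the start of Syngr1 lies within 1 kb of its own. In KO cells Rpl24, a 60S protein of the subunit interface, rose from 336, 294 and 279 to 624, 530 and 357 tags (+0.68, adjusted p = 0.00274), the highest again in replicate 1 (+0.51 without it, +1.02 with it alone). Rpl32 went from 588, 570 and 572 to 486, 230 and 227 (-0.95, adjusted p = 0.00871). Its change was -1.30 without replicate 1 and -0.24 with replicate 1 alone (adjusted p = 0.541).

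Loss of Nur77 changed few members before LPS. At 0 h 1 of 82 members was lower in Pol II and none higher in KO cells, against 2.73% and 4.24% of all 13219 genes. The one member was Rps3a1, a 40S protein, at 393, 436 and 456 tags in WT and 319, 298 and 309 in KO cells (-0.46, SE 0.116, adjusted p = 0.0219). It was also lower in KO cells at 1 h (-0.45, adjusted p = 0.00501; 250, 232 and 257 against 339, 338 and 342 tags) and at 18 h (-0.40, adjusted p = 0.0204; 187, 202 and 132 against 249, 216 and 224 tags). At 0 h it did not pass the test at the start alone (-0.25, adjusted p = 0.351) or without any 1 of the 3 replicates (adjusted p = 0.0707–0.177). H3K27ac gave 0 of 81 members at 0 h by limma, against 0.305% of all genes lower and 0.466% higher. At an unadjusted p under 0.05, a looser threshold than that of these shares, there were also 0 members.

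At 1 h of LPS Pol II was higher in KO cells over 11 of 82 members and lower over 3, against 38.3% and 7.47% of all 12068 genes, and with centred libraries the direction turned to 39 lower and none higher (21.4% and 15.6% of all genes). Fewer members passed without any 1 of the replicates: 4 higher and 3 lower without replicate 1, 3 and 0 without replicate 2, and 4 and 1 without replicate 3. In these fits 20.7% to 31.2% of all genes were higher and 5.21% to 6.15% lower. On the scale of tags the higher members were led by Rpl3l (+0.45, adjusted p = 0.00520), Rpl18 (+0.39, adjusted p = 0.00302) and Rps27l (+0.34, adjusted p = 0.0452). The WT and KO libraries of Rpl18 overlapped. After centring neither Rpl3l nor Rps27l passed the test (+0.20 and +0.09). Rps3a1 was lower on both scales (-0.70 after centring). Rpl3 was lower over the gene (-0.18, adjusted p = 0.0308) and higher at its start alone (+0.87, adjusted p = 8.02e-07). For H3K27ac at 1 h 15 of 82 members were lower in KO cells and 1 higher, against 7.42% and 11.1% of all 11816 genes. Rpl29 held 378, 386 and 406 tags in WT and 296, 262 and 256 in KO cells (-0.51, SE 0.0844, adjusted p = 0.00182), Rpl32 545, 538 and 556 against 486, 230 and 227 (-0.87, adjusted p = 0.0349), and Rpl3, the one that was higher, 89.2, 79.1 and 107 against 123, 277 and 475 (+1.39, adjusted p = 0.0195). These counts rest on replicates 2 and 3 of KO at 1 h. Without both, with replicate 1 alone left, the members' median was -0.09, against -0.002 for all genes. Rpl29 was then at -0.38 (adjusted p = 0.137), Rpl32 at -0.16 (adjusted p = 0.917) and Rpl3 at +0.40 (adjusted p = 0.791). Without replicate 1 of KO at 1 h 26 members were lower and 7 higher, where 18.4% of all genes were lower and 27.3% higher, and without replicate 2 or replicate 3 of all groups none passed (at most 0.260% of all genes in a direction).

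At 18 h Pol II was lower in KO cells over 7 of 83 members and higher over 1, against 13.5% and 7.59% of all 12795 genes, and after centring 8 were higher and 2 lower (15.4% and 7.77% of all genes). Without replicate 2, and likewise without replicate 3, 2 were lower and 1 higher, where 7.55% and 6.08% of all genes were lower and 4.52% and 5.13% higher. The largest difference was that of Rpl15, at 219, 216 and 269 tags in WT and 142, 141 and 126 in KO cells (-0.73, SE 0.109, adjusted p = 0.000107), in a window shared with Nkiras1; it was -0.62 at the start alone (adjusted p = 0.00218). Rps9 held 1095, 1008 and 1119 tags in WT and 805, 804 and 806 in KO cells (-0.41, adjusted p = 0.00827; -0.27 and adjusted p = 0.0603 after centring). Rps24, a 40S protein, was the one that was higher, at 648, 650 and 625 tags in KO and 421, 451 and 463 in WT cells (+0.52, SE 0.0742, adjusted p = 7.56e-05). Its window of 10.8 kb is shared with Polr3a, and at the annotated start of Rps24 alone the difference was -0.26 (adjusted p = 0.144). That start lies 3553 bases from the RefSeq one, which was not counted there. H3K27ac was lower over 3 of 82 members, among them Rps14 (341, 345 and 335 tags in WT, 228, 274 and 234 in KO cells; -0.46, adjusted p = 0.00268) and Rps27a (-0.39, adjusted p = 0.0480), and higher over none, against 2.30% and 0.952% of all 11452 genes. With centred libraries 2 members were higher and 1 lower (1.57% and 1.38% of all genes). Without replicate 2 or replicate 3 of all groups no member passed, and without replicate 1 there were 7 lower, where 9.04% of all genes were lower. Without replicate 1 of KO at 18 h alone 3 were lower and 0 higher (3.38% and 1.39% of all genes).

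The interaction of genotype and LPS asks whether the change after LPS differed between the genotypes. For Pol II at 1 h it was positive (less of a fall in KO cells) for 2 of 82 members and negative for none, against 14.2% and 4.23% of all 13415 genes, and after centring 8 were negative and none positive (13.2% and 6.65% of all genes). None passed without replicate 2, and 1 negative one without replicate 3, where 2.06% and 2.35% of all genes were negative. The 2 were Rpl37a, a 60S protein (WT 360, 401 and 390 to 266, 261 and 259 tags; KO 362, 361 and 381 to 327, 332 and 322; interaction +0.37, adjusted p = 0.0267), and Rps7, a 40S protein that binds Mdm2 (interaction +0.32, adjusted p = 0.0491). For Pol II at 18 h it was positive for 1 and negative for 2 of 83 members, against 4.86% and 9.94% of all 13555 genes, and after centring 10 were positive and 1 negative (9.85% and 5.65% of all genes). Rps24 (+0.64, SE 0.105, adjusted p = 0.000518) was positive over the gene, though -0.24 at its annotated start (adjusted p = 0.407), which lies 3553 bases from its RefSeq one. Rpl15 (-0.68, SE 0.155, adjusted p = 0.00627) and Rps14 (-0.36, adjusted p = 0.0236) were negative. The long window of Rps14, shared with Ndst1, held 176 tags in the WT input at 18 h and 14.8 in the KO input. That KO input was sparse, with 13 members listed against 64–76 in the other inputs. The interaction of Rps14 was +0.15 with input subtracted (adjusted p = 0.326), which takes much more from WT than from KO at 18 h, and -0.11 at the start alone (adjusted p = 0.789). For H3K27ac no member passed at 1 h by limma, against 0.115% of all genes positive and 0.453% negative. At an unadjusted p under 0.05, a looser threshold than that of these shares, there were 21 of 82 members. Without replicate 1 of KO at 18 h the unadjusted counts were 28 of 82 members and 3620 of 12141 genes. Without replicate 1 of KO at 1 h 3 members passed as positive and 20 as negative, where 15.7% of all genes were positive and 14.3% negative. Without replicate 1 of all groups 10 were positive and 20 negative (21.1% and 19.2% of all genes). Without replicates 2 and 3 of KO at 1 h, which leaves replicate 1 alone, the median interaction at 1 h was -0.14 for the members and -0.07 for all genes. None passed at 18 h, against 0.166% and 0.465% of all genes, and none without replicate 1 of KO at 18 h. At an unadjusted p under 0.05 there were 9 members at 18 h. Without replicate 1 of KO at 18 h the unadjusted counts were 9 of 82 members and 2115 of 12031 genes.

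Other genes of ribosome production were followed as fixed lists beside the members. Of 30 ribosome biogenesis genes 22 had lower Pol II in WT cells at 18 h and 1 higher (median -0.90), led by Gar1 (-2.50) and Nop58 (-2.40), both proteins of small nucleolar ribonucleoprotein particles. Of 15 elongation factors and other TOP genes 13 fell and none rose (median -0.65), led by Eif3e (-1.82), a subunit of an initiation factor, and Npm1 (-1.37), a nucleolar chaperone. Of 23 initiation factors 16 fell and 4 rose (median -0.51), and of 14 RNA polymerase I genes 7 fell and 1 rose (median -0.34), led by Twistnb (-1.23) and Polr1a (-1.13). The 78 mitochondrial ribosomal protein genes had 22 lower and 15 higher (median -0.07, all genes 0.00), where 33.3% of all genes were lower and as many higher. In KO cells at 18 h the corresponding falls were 23 of 30, 13 of 15, 16 of 23, 10 of 14 and 33 of 78, the last of them at the share of all genes that fell (42.2%). Against a median of -0.82 for all genes in WT cells at 1 h, those of the lists were -0.44 for biogenesis, 0.03 for elongation factors and TOP genes and -0.77 for the mitochondrial list. H3K27ac at 18 h in WT cells fell at 16 of 30 biogenesis genes (median -0.41) and at 23 of 77 mitochondrial ones (median -0.18), where 26.5% of all genes fell. As a check of the stimulus, 18 of 20 LPS-induced reference genes had higher Pol II at 1 h in WT cells (median +3.15).

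**Figure D5:**
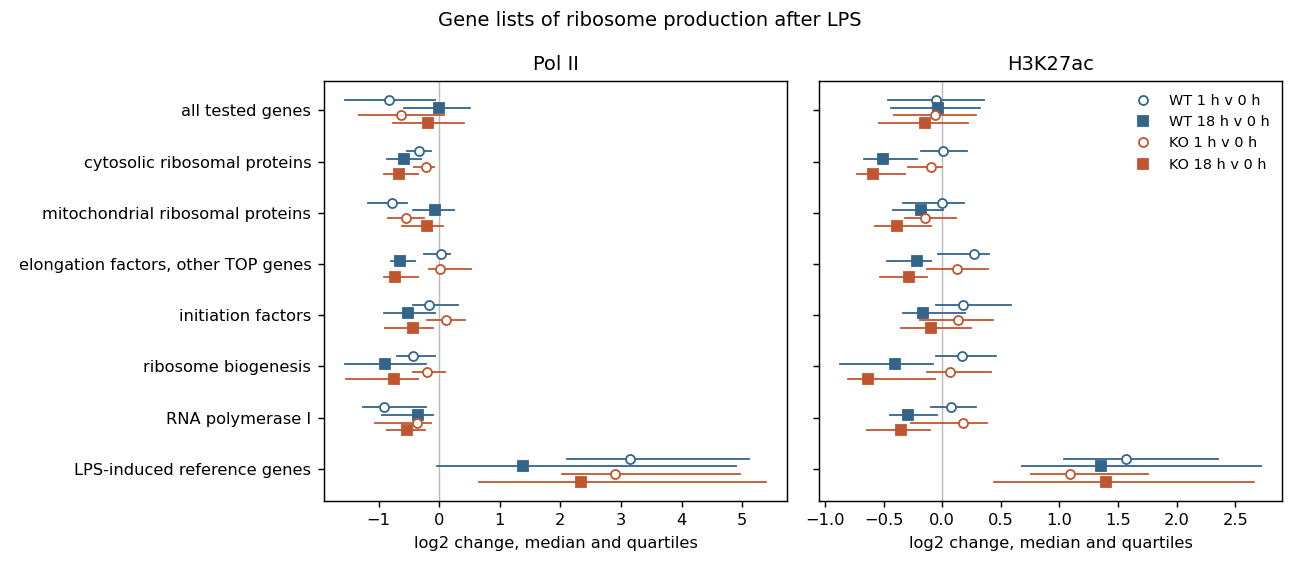
Median (symbol) and quartiles (line) of log2 changes of normalized tags plus 10 for the lists of ribosome production, all tested genes and LPS-induced reference genes, for Pol II on the left and H3K27ac on the right; open circles are 1 h and filled squares 18 h, WT in blue and KO in orange. At 18 h the cytosolic ribosomal protein genes (-0.58 in WT for Pol II) lie with elongation factors and biogenesis genes, and the mitochondrial ribosomal protein genes (-0.07) lie near all genes; Pol II changes at 1 h are to be read against the median of all genes, since their direction turns with centring.

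Among 20 regulators of ribosome production 7 fell and 10 rose in Pol II at 18 h in WT cells, against 33.3% of all genes in either direction, so that the falls were near the share of all genes. Myc, an activator of ribosomal genes, went from 957, 1066 and 1093 tags at 0 h to 13.3, 8.26 and 0 at 18 h (-6.01, SE 0.244, adjusted p = 3.78e-13), and its antagonist Mxd1 from 135, 158 and 114 to 2602, 2581 and 2199 (+4.09, SE 0.110, adjusted p = 1.38e-15). In KO cells the changes were -5.66 and +4.14. H3K27ac moved the same way, by -2.02 for Myc and +1.26 for Mxd1 in WT cells. The mTOR genes of the list did not move as one. Rptor, the subunit of mTOR complex 1 that binds its substrates, fell by 2.09, and Eif4ebp1, a repressor of translation that this complex phosphorylates, rose by 1.33. The activator Rheb rose by 0.59 and the S6 kinase genes Rps6kb1 and Rps6kb2 by 0.43 and 1.03, while the inhibitors Tsc1 and Tsc2 fell by 0.87 and 0.64. Mtor itself did not pass the test (-0.26, adjusted p = 0.194). Whether any of these genes bears on the members was not tested.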

How the data were processed

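Bone marrow-derived macrophages were profiled by ChIP-seq for Pol II and H3K27ac. Per the study's methods and the submitters' processing notes, reads were trimmed with Skewer, aligned to mm10 with HISAT2 2.1.0 and collected with HOMER, duplicates removed; per the file headers regions were called in each library (windows of 500 bp, stitched up to 1000 bp, Poisson p 0.001, no input control). The deposited signal is the authors' normalized tag count per 10 M library tags; whole counts were not recoverable.

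Regions were assigned to 21884 GENCODE protein-coding genes (54 with duplicate symbols left out), partly overlapping regions by the share that overlapped. limma 3.58.1 (R 4.3.3) was fitted to log2(value + 10) with 6 group means over 18 libraries per antibody and a mean-variance trend; a gene was tested when above 0 in 2 libraries of a compared group. There were 11 Pol II and 9 H3K27ac comparisons, adjusted by Benjamini-Hochberg over all genes tested in each. The procedure was tested on simulated data. Alternatives were a pseudocount of 1, no filter, libraries centred on their medians, a common density floor, input subtraction, narrower windows, a replicate block and leaving out libraries. Replicate numbers, compared by correlating deviations from group means, did not pair the libraries. Depth, above, limits the weakest regions; the deposited values give no counting intervals.

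Values in every library are printed for Rplp0, the 3 highest and 3 lowest members per kb at 0 h, the 2 largest changes in each direction per comparison whose libraries do not overlap, paralogs and members listed at 0; others shown were chosen after their values were seen. Members and lists were chosen with earlier results of these data known. Promoters came from RefSeq (64 of 84 members matched), read with Python 3.11.15. The catalogue number of the Pol II antibody differs between the labels and the study's methods. Values of some genes are not reported here.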

Additional observations from a re-analysis of the deposited data

Results flagged for a closer look

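For 5 members the interaction of genotype and LPS passed limma's adjusted threshold for Pol II. At 1 h these were Rpl37a (0.37, SE 0.109, adjusted p = 0.0267) and Rps7 (0.32, SE 0.107, adjusted p = 0.0491). At 18 h they were Rps24 (0.64, SE 0.105, adjusted p = 0.000518), Rpl15 (-0.68, SE 0.155, adjusted p = 0.00627) and Rps14 (-0.36, SE 0.1, adjusted p = 0.0236). Rps24 kept its call without each replicate in turn (adjusted p = 0.00434–0.0418), Rpl15 lost it without replicate 1 (adjusted p = 0.0845), Rpl37a without replicate 2 (adjusted p = 0.299) or replicate 3 (adjusted p = 0.122), and Rps7 (adjusted p = 0.0533–0.290) and Rps14 (adjusted p = 0.0859–0.147) lost it without any of them.

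Some signal lay outside the members. Of the -ps pseudogenes more than 5 kb from any protein-coding gene, 2 were above 0 in every Pol II library. The highest mean of any such pseudogene was 405 tags. Only 1 was above 0 in every Pol II library and at 0 in every input. The pseudogene Rpl21-ps9, more than 5 kb from any protein-coding gene, was above 0 in all 18 Pol II libraries, with a mean of 78.4 tags (range 53.2–102), and was listed at 0 in all 6 inputs. Its group means were 88.1, 59.2 and 81.3 tags in WT and 97.7, 63.6 and 80.3 in KO cells at 0, 1 and 18 h. Of the 191 such isolated pseudogenes of Rpl and Rps genes, 177 were listed at 0 in every Pol II library.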

How the results depend on the processing

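At 18 h against 0 h (both antibodies) and 18 h against 1 h (Pol II) more members fell than rose in both genotypes, and the counts passing in either direction stayed within 1.5 times, under every alternative run. Falls alone at 18 h against 1 h in WT went from 46 to 79 with centring. The other counts moved as follows. Centring libraries on their medians turned Pol II at 1 h to 69 members passing in WT and 64 in KO cells (medians 0.46 and 0.35), KO against WT to 3 at 0 h, 39 at 1 h and 10 at 18 h, and the interaction to 8 at 1 h (median -0.14) and 11 at 18 h. For H3K27ac it gave 41 in WT at 1 h, 25 in KO against WT at 1 h and 3 at 18 h, and an interaction median of 0.01 at 18 h; Rplp0 at 18 h against 1 h turned to -0.75 in WT and -0.43 in KO. The KO input at 18 h held 27554 regions (64725–108461 in the others) and 83.5 tags over the members (1132–2176), so input subtraction takes unequal amounts from the genotypes at 18 h. It gave, for Pol II, 2 and 12 in KO against WT at 0 h and 18 h and 5 and 12 for the interaction at 1 h and 18 h (Rps14 0.15), and for H3K27ac 7 in KO against WT at 18 h (median 0.07) and 2 and 1 for the interaction at 1 h and 18 h (median at 18 h 0.06). The narrow windows gave, for Pol II, 1 (higher, not lower) and 2 in KO against WT at 0 h and 18 h and 0 for the interaction at 18 h by limma (3 on the full window); Rps24 became -0.49 for KO at 18 h, -0.26 for KO against WT and -0.24 for the interaction, and Rpl3 0.87 for KO against WT at 1 h. For H3K27ac they gave 24 in WT at 1 h and 3 in KO against WT at 1 h. The interaction for Pol II at 1 h had 1 member with the common density floor and 4 with a pseudocount of 1. With the replicate block KO against WT at 18 h had 5 and the interaction at 1 h had 1 for Pol II; same-number deviations correlated at -0.0756 to 0.108 for Pol II and -0.424 to 0.0812 for H3K27ac, and those of other numbers at -0.137 to 0.129 and -0.320 to 0.407, so the numbers did not pair the libraries. The value of -0.424 is that between replicate 1 of KO at 1 h and at 18 h, and values over 0.35 join each of them to the other time's replicates 2 and 3. Without replicate 1 of KO at 1 h H3K27ac gave 41 in WT at 1 h, 33 and 8 in KO against WT at 1 h and 18 h and 23 and 2 for the interaction at 1 h and 18 h, and without replicate 1 of KO at 18 h 27 in KO against WT and 4 for the interaction at 1 h. Without replicates 2 and 3 of KO at 1 h it gave 0 and 6 in KO against WT at 1 h and 18 h, by limma, and 2 for the interaction at 18 h. Leaving out each replicate number in turn gave for Pol II 46–62 (WT) and 36–42 (KO) at 1 h, 63–70 and 64–66 at 18 h, 49–55 and 52–58 at 18 h against 1 h, 0–1, 3–7 and 3–9 in KO against WT at 0, 1 and 18 h, and 0–3 and 2–4 for the interaction. For H3K27ac it gave 14–39 (WT) and 9–35 (KO) at 1 h, 48–67 and 57–74 at 18 h, 0–0, 0–39 and 0–7 in KO against WT and 0–30 and 0–2 for the interaction, where the fits without a replicate rest on fewer samples. Leaving out replicates 2 and 3 of KO at 1 h, or either replicate 1 in comparisons of other times or of WT cells, and for medians and single members in any comparison, was chosen after seeing the data. The causes of the other moves were not tested. Of single members, 752 values kept their direction and side of the threshold, 91 lost significance, 3 gained it and 7 reversed. The deposited values hold no region below the calling threshold, which limits what can be said of Rpl39l and Rpl10l.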
